A study of Homo sapiens with 4 samples.

Results

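The insulin-like growth factor (IGF) system was described by 10 genes chosen by name, with earlier results of these data known. These members were the ligand gene IGF2, the receptor genes IGF1R and IGF2R, the adaptor gene IRS1 and the binding protein genes IGFBP2 to IGFBP7. Their counts beside those of all genes are descriptions and do not test the set. All 10 were among the 23577 genes used from the expression table, and all 10 had an FPKM of 1 or more (fragments per kilobase, scaled to the size of the library) in at least 1 line, as had 13713 genes in all. The 4 groups were established human cell lines, named RKN, SKLMS1, SKN and SKUT1, of leiomyosarcoma, a cancer with features of smooth muscle. Each line was 1 poly(A) RNA library from an untreated culture in medium with 10% fetal bovine serum, and the labels gave no treatment, allele or other contrast than the line itself. With 1 library per line no difference has a replicate check, so sizes are given without a test, and a group stands for 1 culture of 1 line.

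IGF1 and IGF2 are secreted growth factors that activate IGF1R, a receptor tyrosine kinase that passes the signal through adaptors such as IRS1 to the PI3K and AKT pathway. IGF2R, also the cation-independent mannose 6-phosphate receptor, takes IGF2 into the cell for degradation and does not signal as a kinase. The IGF binding proteins hold IGFs in the extracellular space, and proteases release the ligand from them. Serum in the medium carries IGFs of its own, and messenger RNA levels do not give the amount of secreted protein.

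Depth was estimated from low values at between 24100000 reads (SKUT1) and 33200000 reads (RKN) per library, with gene lengths that may differ from those of the authors. Of 10 smooth muscle markers, 9 reached an FPKM of 1 in SKUT1 and 7 in SKLMS1, against 6 in RKN and 5 in SKN. Their summed FPKM was 6349 for SKUT1 and 910 for SKLMS1, while RKN had 206 and SKN 110. The highest of them in SKUT1 were TAGLN, at 3816, CALD1, at 1246, and ACTA2, at 1085. MYH11, smooth muscle myosin, and DES, desmin, were at most 1.15 in every line. Summed FPKM of 6 fibroblast markers was 9482 in SKUT1, with 158 in SKLMS1, 143 in RKN and 0.405 in SKN. Summed FPKM of 5 epithelial markers was 549 in SKN, 459 in SKLMS1, 289 in SKUT1 and 54.8 in RKN. These sums came mainly from the keratin genes KRT8, KRT18 and KRT19, while EPCAM and CDH1 were at most 1.80 in any line. The 5 endothelial markers summed to at most 5.07 and the 5 leukocyte markers to at most 1.95 in any line.

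The widest ranges among the members were those of the binding protein genes IGFBP7, IGFBP3 and IGFBP5, while IGFBP2 and IGFBP6 had the narrowest. IGFBP3 and IGFBP7 were among the most abundant messages of SKUT1 and SKLMS1 and were at most 1.39 FPKM in RKN, while the ligand gene IGF2 was highest in SKN. IGF1R and IRS1 were both under 0.2 FPKM in RKN. Between the highest and the lowest line, 9 of 10 members were at least 4-fold apart, a difference of 2 or more on the log2(FPKM + 1) scale, which 26.7% of all 13713 genes reached. Genes with a highest FPKM near 1 cannot reach this difference, while every member was at 4.63 or more in its highest line. Without RKN, 6 members were at least 4-fold apart, for which no share of all genes is given. The median range was 3.40 on that scale for the members and 1.31 for all genes. SKUT1 was the highest line for 7 of 10 members (30.8% of all genes) and RKN the lowest for 6 of 10 (26.7%).

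**Figure D1:**
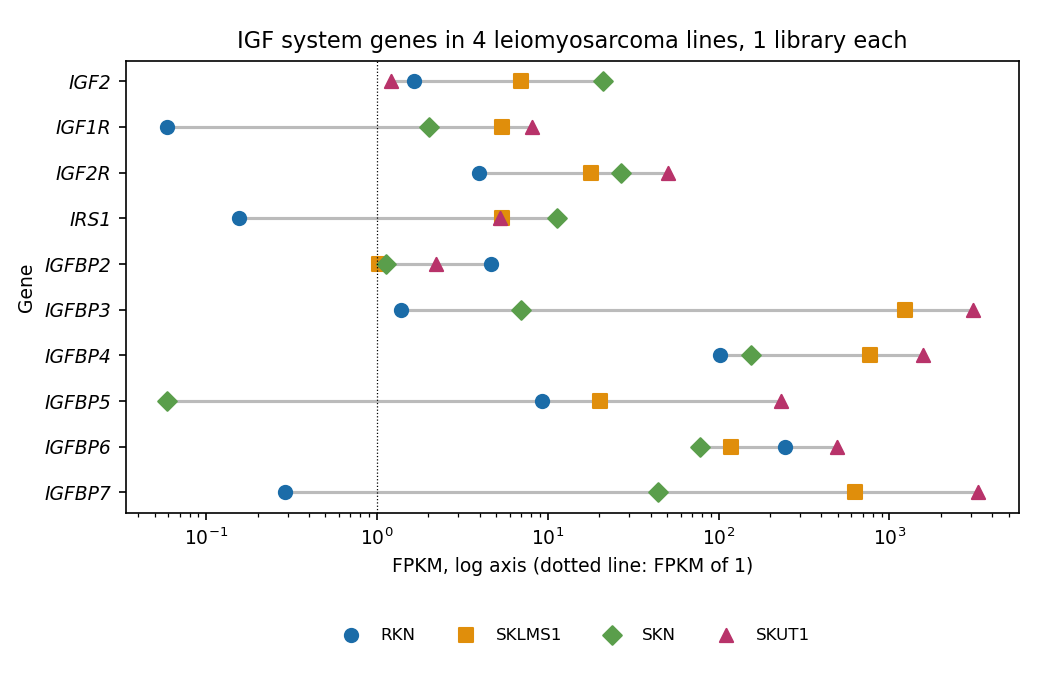
FPKM of each IGF system gene (log axis) in each line, with 1 point per library and a grey line from the lowest to the highest value. IGFBP3 and IGFBP7 span the widest ranges, and RKN holds the lowest value of IGF1R, IGF2R, IRS1, IGFBP3, IGFBP4 and IGFBP7.

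IGF2 had an FPKM of 21.1 in SKN, 6.94 in SKLMS1, 1.66 in RKN and 1.21 in SKUT1. SKN stood highest, 1.48 above SKLMS1 on the log2(FPKM + 1) scale, and RKN and SKUT1 were within 0.27 of each other. IGF2 shares its locus with the read-through gene INS-IGF2, listed at 0.228 or less in every line, and with the antisense gene IGF2-AS, at 1.11 in SKN and 0.273 or less elsewhere. No source used here gives the strand setting of the quantification, so reads of IGF2 and IGF2-AS cannot be told apart with certainty. IGF1, the other ligand, was 3.68 in SKUT1 and 0.0622 in SKLMS1, with RKN and SKN listed at 0. SKUT1, the line lowest in IGF2, was thus the line in which IGF1 passed an FPKM of 1. H19, the maternally expressed RNA that neighbours the paternally expressed IGF2, was 207 in SKUT1 and no more than 0.150 elsewhere.

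The genes of the IGF2 messenger and locus list gave no common direction. Of its 8 measured members, 4 had a range of at least 4-fold (26.7% of all genes). In SKN, 3 of 8 were at least 2-fold above the mean of the other lines (9.97% of all genes) and 2 were below (10.8%). Those 2 were IGF2BP1 and H19. H19 was lower in SKN (0.150) only than in SKUT1 (207), as RKN (0.0282) and SKLMS1 (0.0154) were lower still. IGF2BP3, an oncofetal protein that binds IGF2 messenger RNA, was 39.4 in SKN, 13.1 in SKLMS1, 12.8 in RKN and 0.0929 in SKUT1, so that IGF2 and IGF2BP3 were both highest in SKN and lowest in SKUT1. IGF2BP2 was also highest in SKN (43.7) and between 16.1 and 21.5 elsewhere, whereas IGF2BP1 was listed at 0 in SKN and was 7.42 in SKLMS1, 5.77 in RKN and 1.97 in SKUT1. HMGA2, which in mice acts upstream of Igf2bp2, was 50.4 in SKN, 22.2 in RKN, 12.2 in SKUT1 and 2.22 in SKLMS1. PLAG1, a transcription factor known to activate IGF2, was 2.24 in SKN, 1.54 in SKUT1, 0.812 in SKLMS1 and 0.0295 in RKN.

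IGF1R had an FPKM of 8.08 in SKUT1, 5.37 in SKLMS1, 2.03 in SKN and 0.0590 in RKN. The value in RKN corresponded to about 24 reads over the longest coding transcript of the gene, and RKN was 1.52 below SKN on the log2(FPKM + 1) scale. SKUT1 and SKLMS1 were within 0.51 of each other. The insulin receptor gene INSR, whose product can pair with IGF1R, was low in all 4 lines, at 1.88 in SKUT1, 1.38 in RKN, 1.22 in SKLMS1 and 0.449 in SKN. RKN was therefore the only line of the 4 with INSR above IGF1R in FPKM.

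IGF2R, the clearance receptor, was 50.7 in SKUT1, 27.0 in SKN, 17.9 in SKLMS1 and 3.96 in RKN. It was above IGF1R in FPKM in every line, by a ratio of 67.1 in RKN, 13.3 in SKN, 6.27 in SKUT1 and 3.33 in SKLMS1. The ratio of IGF2R to IGF2 in FPKM was 42.0 in SKUT1 and between 1.28 and 2.57 in the other lines. RKN stood lowest, 1.93 below SKLMS1 on the log2(FPKM + 1) scale, and SKLMS1, SKN and SKUT1 followed each other in steps of 0.57 and 0.88.

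IRS1 was 11.3 in SKN, 5.41 in SKLMS1, 5.26 in SKUT1 and 0.156 in RKN, where the value corresponded to about 49 reads. RKN lay 2.44 below the next line on the log2(FPKM + 1) scale, and SKLMS1 and SKUT1 differed by 0.03. IRS2, the related adaptor gene, differed less, at 5.23 in RKN, 3.28 in SKN, 3.16 in SKLMS1 and 2.29 in SKUT1. RKN thus held the highest IRS2 and the lowest IRS1.

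IGFBP3, the main IGF carrier of the circulation, had an FPKM of 3096 in SKUT1, 1230 in SKLMS1, 6.96 in SKN and 1.39 in RKN. It ranked 17th of 13713 genes in SKUT1 and 47th in SKLMS1. The 2 high lines were separated from the 2 low ones by 7.27 on the log2(FPKM + 1) scale, a wider step than those within each pair, 1.33 and 1.74. With IGFBP3 itself counted, 15 of the 13713 genes had a range of 10.34 or more.

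IGFBP7, a matrix-associated relative that binds IGFs weakly, was 3300 in SKUT1, 625 in SKLMS1, 44.2 in SKN and 0.289 in RKN. It ranked 15th in SKUT1, and the value in RKN corresponded to about 12 reads. The 4 lines were spread over 11.32 on the log2(FPKM + 1) scale with neighbouring lines 2.40 to 5.13 apart. With IGFBP7 itself counted, 6 of the 13713 genes had a range this wide.

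IGFBP4, which holds IGF away from its receptor until the protease PAPPA cleaves it, was abundant in every line, at 1565 in SKUT1, 771 in SKLMS1, 155 in SKN and 102 in RKN. It was the most abundant member in SKN and second to IGFBP6 in RKN. SKUT1 and SKLMS1 were 1.02 apart on the log2(FPKM + 1) scale, SKN and RKN 0.59, and the step between the pairs was 2.31. IGF1R, IGFBP3, IGFBP4 and IGFBP7 thus shared the order SKUT1, SKLMS1, SKN, RKN, which 6.61% of all genes had. This order was picked out after the values were seen, and it was the same for these 4 genes under each scaling tried. The summed fibroblast markers were likewise highest in SKUT1 and lowest in SKN, with SKLMS1 (158) close to RKN (143). This closeness did not hold gene by gene. COL1A2 and THY1 were higher in RKN (98.3 and 44.1) than in SKLMS1 (77.5 and 0.222). LUM, DCN and POSTN were higher in SKLMS1 (75.3, 2.88 and 2.11) than in RKN, where each was at most 0.238. Of the 6 fibroblast markers, SKLMS1 had 4 at an FPKM of 1 or more, and RKN had 2. Summed smooth muscle markers were also highest in SKUT1, next in SKLMS1 and lowest in SKN. The part of either marker set in the differences of IGF1R, IGFBP3, IGFBP4 and IGFBP7 was not tested. Fewer cells of one kind and less RNA per cell cannot be told apart in such bulk samples.

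IGFBP5, a binding protein that attaches to extracellular matrix, was 232 in SKUT1, with 20.2 in SKLMS1, 9.30 in RKN and 0.0587 in SKN. SKUT1 stood 3.46 above SKLMS1, and SKN 3.28 below RKN, on the log2(FPKM + 1) scale. The SKN value corresponded to about 9 reads. IGFBP5 and IGFBP7 were the 2 members highest in 1 line by at least 4-fold (8.10% of all genes), and IRS1, IGFBP5 and IGFBP7 the 3 members lowest in 1 line by at least 4-fold (3.36%). The second count was 6 with a pseudocount of 0.1, 1 with a pseudocount of 5 and 5 without SKN, and the first was 5 without SKLMS1. The shares of all genes refer to the main setting and are not given for these alternatives.

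IGFBP6, which prefers IGF2 over IGF1, was 497 in SKUT1, 246 in RKN, 119 in SKLMS1 and 78.4 in SKN. Its range of 2.65 on the log2(FPKM + 1) scale was the second narrowest of the members, and it was the only member among IGFBP3 to IGFBP7 whose value in RKN was above that in SKLMS1. IGFBP2, a binding protein with an integrin-binding motif, was low in all lines, at 4.63 in RKN, 2.20 in SKUT1, 1.13 in SKN and 1.03 in SKLMS1. It was the member with the narrowest range, 1.47, and the only one highest in RKN. The order of SKN and SKLMS1 in IGFBP2 turned round after rescaling the columns to the same sum (TPM).

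Promoter sequences are shown for IGF1R, IGFBP3 and IGFBP4, which shared the order of the lines, and for IGFBP5, whose lowest line was another. They are the 250 bases before the annotated start on the gene's strand, from RefSeq on GRCh38.p14, in which 8 of the 10 members were matched, and the expression values come from hg19. Capitals mark exact matches on either strand to the TATA box TATAAA, the GC box GGGCGG, the AP-1 motif TGANTCA, the TEAD motif GGAATG or the CArG box.
IGFBP3: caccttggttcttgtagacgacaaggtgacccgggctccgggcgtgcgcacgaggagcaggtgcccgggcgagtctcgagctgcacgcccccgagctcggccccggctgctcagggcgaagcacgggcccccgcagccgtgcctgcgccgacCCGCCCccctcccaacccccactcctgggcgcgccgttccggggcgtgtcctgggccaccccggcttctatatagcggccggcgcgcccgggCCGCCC
IGFBP4: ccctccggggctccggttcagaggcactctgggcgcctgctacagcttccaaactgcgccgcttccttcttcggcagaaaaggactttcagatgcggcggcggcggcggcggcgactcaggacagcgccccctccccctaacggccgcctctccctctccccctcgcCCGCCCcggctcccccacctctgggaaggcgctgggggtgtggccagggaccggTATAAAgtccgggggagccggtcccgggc
IGFBP5: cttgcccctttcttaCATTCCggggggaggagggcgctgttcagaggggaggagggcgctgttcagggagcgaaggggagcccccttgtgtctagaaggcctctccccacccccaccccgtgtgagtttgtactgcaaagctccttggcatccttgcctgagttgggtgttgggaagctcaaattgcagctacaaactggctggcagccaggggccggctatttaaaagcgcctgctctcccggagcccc
IGF1R: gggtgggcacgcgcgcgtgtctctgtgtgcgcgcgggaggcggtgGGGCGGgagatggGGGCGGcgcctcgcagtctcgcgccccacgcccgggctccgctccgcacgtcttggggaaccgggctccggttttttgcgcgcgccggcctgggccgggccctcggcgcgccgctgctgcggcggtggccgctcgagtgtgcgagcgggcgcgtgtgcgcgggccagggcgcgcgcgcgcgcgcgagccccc
The regions are chr7:45921273-45921522 on the minus strand for IGFBP3, chr17:40443200-40443449 on the plus strand for IGFBP4, chr2:216695550-216695799 on the minus strand for IGFBP5 and chr15:98648289-98648538 on the plus strand for IGF1R. GGGCGG matched at 2 places in IGFBP3, 2 in IGF1R and 1 in IGFBP4, and 42.6% of 35116 promoters of this length held it. IGFBP4 alone of these 4 held TATAAA, starting 29 bases before the start (10.7% of promoters), and IGFBP5 alone held GGAATG (11.9%). None of the 4 held TGANTCA (6.57%) or a CArG box (1.16%), and no match overlapped one of another motif. GC content was 81.2% in IGF1R, 76.0% in IGFBP3, 71.6% in IGFBP4 and 61.2% in IGFBP5, against a median of 58.0% over all promoters. Binding and methylation were not measured, and a match describes letters only.

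Summed over the 6 binding protein members, FPKM was 8693 in SKUT1 and 2767 in SKLMS1, beside 363 in RKN and 286 in SKN. The sum made up 1.40% of the SKUT1 column and 0.560% of the SKLMS1 column, beside 0.0813% in RKN and 0.0531% in SKN. A different gene led the sum in each line, as long as IGFBP7 was counted. With IGFBP7 left out, IGFBP3 led in both SKUT1 and SKLMS1. IGFBP7 held 38.0% in SKUT1, just above IGFBP3 with 35.6%, and IGFBP3 held 44.5% in SKLMS1. IGFBP6 held 67.5% in RKN and IGFBP4 54.3% in SKN. IGFBP3 had a ratio to IGFBP4 in FPKM of 1.98 in SKUT1 and 1.60 in SKLMS1, and of 0.0449 in SKN and 0.0136 in RKN. Because FPKM is per length, these shares compare genes within a column and do not move when a whole column is rescaled.

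**Figure D2:**
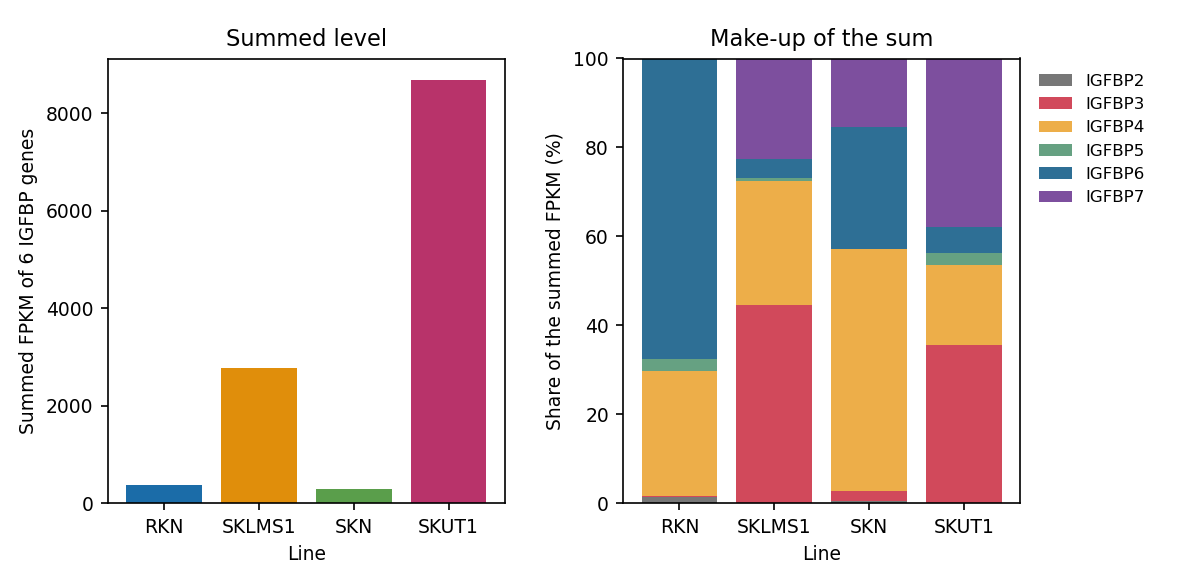
Left, summed FPKM of the 6 binding protein genes in each line; right, the share of each gene in that sum, in percent, with 1 library per bar. SKUT1 has the highest sum, 8693, and the leading gene is IGFBP6 in RKN, IGFBP3 in SKLMS1, IGFBP4 in SKN and IGFBP7 in SKUT1.

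The balance of binding protein messages to IGF2 also differed. The summed binding protein FPKM was 7204 times the IGF2 FPKM in SKUT1, 399 times in SKLMS1, 220 times in RKN and 13.6 times in SKN. With IGF1 added to IGF2, a step chosen after the values were seen, SKUT1 had a ratio of 1778 and SKLMS1 one of 395, and those of RKN and SKN stayed at 220 and 13.6. SKN combined the highest IGF2 with the lowest binding protein sum. IGFBP1, left out of the sum as it is no member, was 7.46 in SKLMS1, 0.565 in SKUT1, 0.0205 in RKN and listed at 0 in SKN.

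Between pairs of lines, more members than genes at large were at least 4-fold apart. The members were chosen with earlier results of these data known, so this is no test of the set. RKN against SKUT1 had 7 of 10 members apart (15.2% of all genes). All 7 were higher in SKUT1 (10.2%), namely IGF1R, IGF2R, IRS1, IGFBP3, IGFBP4, IGFBP5 and IGFBP7. SKN against SKUT1 had 6 (12.1%), with IGF2 higher in SKN (4.40%) and the 5 genes IGFBP3 to IGFBP7 higher in SKUT1 (7.69%). RKN against SKLMS1 had 5 (9.79%), IGF1R, IRS1, IGFBP3, IGFBP4 and IGFBP7, all higher in SKLMS1 (6.33%). RKN against SKN also had 5 (9.65%), with IGFBP5 higher in RKN (3.86%) and IGF2, IGF2R, IRS1 and IGFBP7 higher in SKN (5.78%). SKLMS1 against SKN had 4 (7.90%), IGFBP3, IGFBP4, IGFBP5 and IGFBP7, all higher in SKLMS1 (4.30%). SKLMS1 against SKUT1 had 3 (12.1%), IGFBP5, IGFBP6 and IGFBP7, all higher in SKUT1 (7.28%). With a pseudocount of 5, RKN against SKLMS1 had 3 and RKN against SKN 1, and with 0.1 RKN against SKLMS1 had 8, without shares of all genes for these settings. The pairs share libraries, so their counts are not independent.

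**Figure D3:**
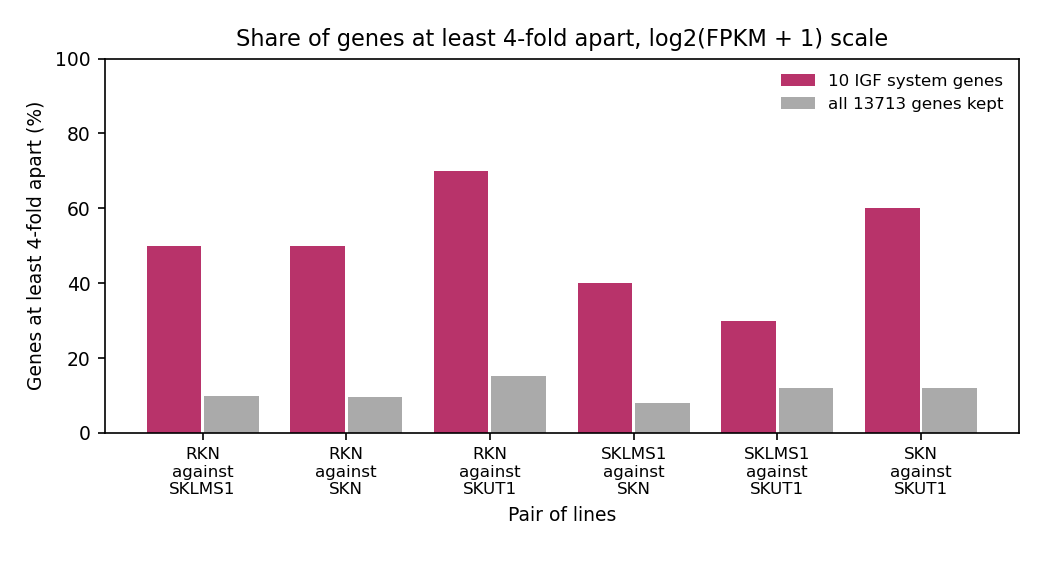
Percentage of genes that differ by 4-fold or more, as log2(FPKM + 1), for the 10 IGF system genes and for all 13713 genes kept, in each pair of lines. The members' bar is above that of all genes in each of the 6 pairs, with 3 to 7 of 10 members apart.

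Against the mean of the other 3 lines, SKUT1 had 7 of 10 members 2-fold or more above (17.9% of all genes) and 1, IGF2, as far below (13.1%). In RKN 7 of 10 were lower (16.6%) and 1, IGFBP2, was higher (11.6%). The median difference of the members was 1.91 in SKUT1, beside -0.03 for all genes, and -2.44 in RKN, beside -0.04 for all genes. In SKN 5 binding protein genes, IGFBP3 to IGFBP7, were at least 2-fold lower (10.8%) and IGF2 and IRS1 higher (9.97%). Once SKUT1 was left out, the SKN count of lower members was 3 and the difference of IGFBP7 was 0.67, against -1.62 with all lines. In SKLMS1 4 members were higher (10.7%), IGF1R, IGFBP3, IGFBP4 and IGFBP7, and 1 was higher without RKN. Counts with a line left out have no share of all genes beside them.

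Genes that cut binding proteins, or that block the proteases, varied widely. All 14 measured members of this list had a range of at least 4-fold (26.7% of all genes), 11 of 14 were at least 2-fold lower in RKN (16.6%) and 8 of 14 higher in SKUT1 (17.9%). ADAMTS1, a metalloprotease, was 707 in SKUT1, 16.6 in SKLMS1, 8.88 in SKN and 0.0466 in RKN. HTRA1, a secreted serine protease that cleaves IGFBP5, was 366 in SKUT1, 48.7 in SKN, 32.0 in SKLMS1 and 2.66 in RKN. STC2, an inhibitor of PAPPA, was 564 in SKUT1, 103.5 in SKLMS1, 27.6 in SKN and 2.25 in RKN, the same order as IGFBP4. PAPPA itself, named here after its values were seen, was 19.8 in SKUT1, 9.58 in SKN and 0.316 in SKLMS1, with RKN listed at 0. MMP2, a gelatinase, was 616 in SKUT1 and at most 31.0 elsewhere, PLAT, tissue plasminogen activator, 240 in SKUT1 and at most 15.8 elsewhere, and MMP1, interstitial collagenase, 953 in SKN and at most 2.74 elsewhere. The summed fibroblast markers and the summed smooth muscle markers were also highest in SKUT1, and their part in the list's pattern was not tested.

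Surface and matrix partners of the binding proteins had 5 of 8 measured members with a range of at least 4-fold (26.7% of all genes), 6 of 8 at least 2-fold lower in RKN (16.6%) and 4 of 8 higher in SKUT1 (17.9%). LRP1, an endocytic receptor that binds IGFBP3, was 209 in SKUT1, 13.2 in SKN, 7.10 in SKLMS1 and 2.36 in RKN. The integrin genes ITGB1 (1240 in SKUT1 and 129 in RKN), ITGA5 (280 in SKUT1 and 12.6 in RKN) and ITGAV (143 in SKUT1 and 6.75 in RKN) were also highest in SKUT1 and lowest in RKN. ITGB3 was highest in SKLMS1 (25.6) and SKN (23.8), with 5.15 in SKUT1 and 0.202 in RKN. CD93, a receptor of IGFBP7 on endothelium, was 2.35 in SKN and 0.0126 in SKUT1, with RKN and SKLMS1 listed at 0.

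Steps after the receptor differed less. Of 20 listed PI3K, AKT, FOXO and mTOR genes, 3 had a range of at least 4-fold (26.7% of all genes), with a median range of 0.91 on the log2(FPKM + 1) scale against 1.31 for all genes. In RKN 5 of 20 were at least 2-fold lower (16.6%) and 1 was higher (11.6%). One of the 3 was PIK3R3, a regulatory subunit of PI3K, at 33.3 in RKN and at most 3.83 elsewhere. RICTOR, a subunit of mTOR complex 2, was 1.43 in RKN and 4.25 to 6.80 elsewhere. FOXO1 and FOXO4, transcription factors restrained by AKT, were at most 2.81 and 3.16 in any line.

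Of 9 measured receptors and adaptors outside the members, 3 had a range of at least 4-fold, close to the 26.7% of all genes. In RKN 4 of 9 were at least 2-fold lower (16.6%) and 0 of 9 higher (11.6%). GRB14, an adaptor that restrains insulin and IGF receptors, was 12.6 in SKLMS1, 5.60 in SKUT1, 0.595 in SKN and listed at 0 in RKN, and its relative GRB10 was 26.2 in SKUT1, 22.3 in SKN, 18.1 in SKLMS1 and 6.97 in RKN. SOCS1, a feedback inhibitor of cytokine signalling, was 30.5 in SKN and at most 3.34 elsewhere, and SOCS3 was 44.1 in SKN, 37.6 in SKLMS1, 17.4 in SKUT1 and 1.90 in RKN. SOCS2 ran from 2.29 in RKN to 8.86 in SKUT1, and the adaptor gene SHC1 from 50.5 in SKLMS1 to 132 in SKUT1.

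**Figure D4:**
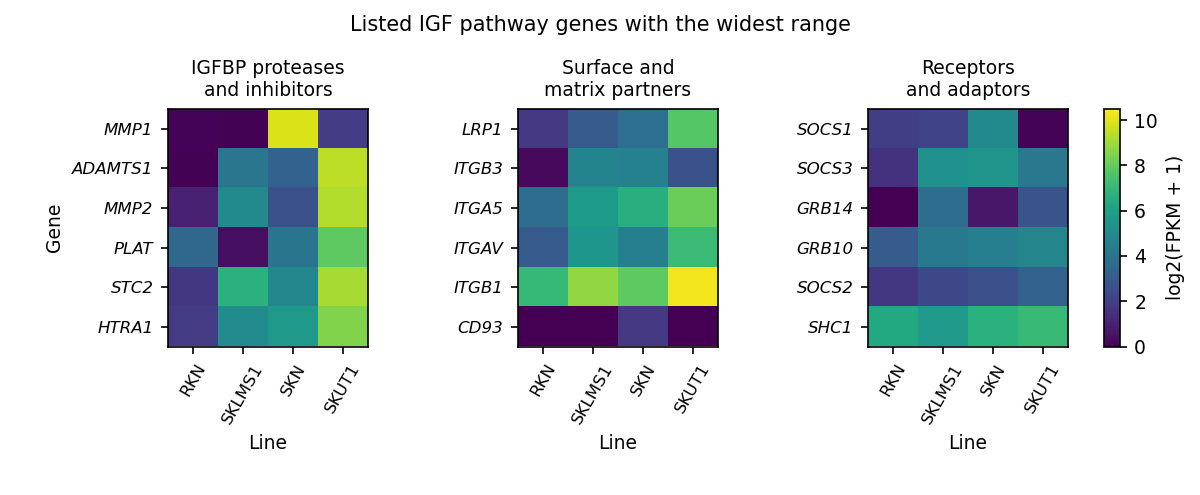
log2(FPKM + 1) of up to 6 genes with the widest range in each of 3 lists of IGF pathway genes, by line, with 1 library per cell. ADAMTS1, MMP2, PLAT, STC2, HTRA1, LRP1, ITGA5, ITGAV and ITGB1 are highest in SKUT1, and MMP1 is highest in SKN.

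For the 9 members with a range of at least 4-fold, the 2 genes with the most similar pattern were found among 10414 genes by the root mean square difference of centred log2(FPKM + 1) profiles over the 4 lines. IGF1R was nearest to YPEL5 (0.06) and AHRR (0.12), IGF2R to MXRA7 (0.10) and OSTF1 (0.11), IRS1 to FOXD1 (0.09) and FAM111B (0.12), and IGF2 to PRR4 (0.14) and NFKBIZ (0.17). IGFBP4 was nearest to FHL2 (0.13) and FSTL3 (0.19), and IGFBP6 to SDPR (0.02) and TCF4 (0.13). Levels could differ widely. SDPR was at most 5.32 FPKM and listed at 0 in SKN, while IGFBP6 was 78.4 to 497. YPEL5 was 9.32 to 87.4, while IGF1R was 0.0590 to 8.08. Among these 6 members, IGF1R, IRS1 and IGFBP6 kept neither gene with a pseudocount of 0.1. IGF2 and IGF2R then kept 1 each and IGFBP4 kept 2. With 4 values such likeness is common, since between 36 and 181 genes lay within 0.5 of each of these 6 members. No gene lay within 0.5 of IGFBP3, IGFBP5 or IGFBP7. Nearest to IGFBP3 were the matrix genes VCAN (0.88) and LUM (1.02) and nearest to IGFBP5 were LIMS2 (0.56) and HSPG2, the basement membrane proteoglycan perlecan (0.58). NNMT was 1.24 from IGFBP7. VCAN was 257 in SKUT1, 160 in SKLMS1, 0.0296 in SKN and 0.0223 in RKN.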

How the data were processed

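Poly(A) RNA of 4 lines was sequenced per the labels' protocols from TruSeq Stranded mRNA libraries on an Illumina NextSeq instrument, single-end, with 75 bases per read. STAR, Cufflinks and hg19 are named without a version in the submitters' processing notes. No source used here gives the annotation or the strand setting. The deposited values are FPKM per gene symbol, made by the authors. Of 23610 rows, 28 with a symbol turned into a date number and 5 with spreadsheet errors were left out.

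Each line was compared as log2(FPKM + 1) without a test, over the 13713 genes that reached an FPKM of 1 in any line. A fold on this scale understates the difference of low genes, and an exact 0 can be a failed estimate. Depth was read off the steps of low values of genes with 1 transcript in GENCODE release 29, assuming a fragment length of 200 bases, and 62.7 to 64.8% of the low values then lay within 0.1 of a whole read, against 20% by chance. The totals were fitted to these same values, so this does not check them. They were searched up to 40000000 reads, a limit set after a search up to 60000000 had given 48600000 for SKUT1 (62.9%), near a multiple of the total used, and the same totals for the other lines. Read equivalents use the longest coding transcript and are rough. Each column was 1 library, and no column was left unused.

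The members and lists were chosen with earlier results of these data known. Named genes are all members, up to 6 listed genes per list with the widest range, and the 2 genes most like each member with a range of at least 4-fold, and some genes this rule takes are not reported here. Promoters were taken from RefSeq on GRCh38.p14. The code was tested on simulated data. Alternatives were pseudocounts of 0.1 and 5, TPM, median-of-ratios and quantile scaling, 2-fold and 8-fold rules, other minimums, the median of the other lines, other sums of binding proteins, other measures of likeness and leaving out each line. Python 3.11.15, numpy 2.4.6, pandas 2.3.3 and matplotlib 3.10.9 were used.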

Additional observations from a re-analysis of the deposited data

How the results depend on the processing

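The order of the lines was the same for 9 of 10 members under TPM, median-of-ratios and quantile scaling, the exception being IGFBP2 under TPM. TPM moved the median difference of all genes from -0.04 to 0.24 in RKN and from -0.03 to -0.31 in SKUT1, and quantile normalization moved it to -0.17 in SKUT1, while 39 of 40 member differences kept their side of the 2-fold line under TPM and 40 of 40 under quantile normalization. The counts of members depended more on the pseudocount and the fold rule, where the cause is the rule itself. Shares of all genes are given for the main setting only, so the counts below have none beside them. With a pseudocount of 0.1, RKN against SKLMS1 had 8 members at least 4-fold apart and 6 were lowest in 1 line. With 5, RKN against SKLMS1 had 3, RKN against SKN 1, and 1 member was lowest in 1 line. By an 8-fold rule RKN against SKLMS1 had 2, SKLMS1 against SKUT1 had 1 and 1 member was highest in 1 line. By a 2-fold rule RKN against SKLMS1 had 10, RKN against SKN 9, SKLMS1 against SKUT1 7, and 6 members each were highest and lowest in 1 line. Without SKLMS1, 5 members were highest in 1 line, and without SKN, 5 were lowest. The count of members with a range of at least 4-fold was 6 without RKN and 7 to 10 under the other alternatives, beside 9 as reported, and the shares of the leading binding proteins moved by less than 1.5 times where a value could be had. The share of IGFBP7 in SKUT1 has none when IGFBP7 is left out of the sum. IGFBP3 then leads in SKUT1 as it does in SKLMS1, so that the leading gene no longer differs between these lines. Over the 10 alternatives, the differences of members from the mean of the other lines kept their side of the 2-fold line in 319 cases, passed it in 23, fell short of it in 15 and turned round with at least 1 value past it in 3. Another 16, counted among the 319, changed sign with both values inside that line, among them IRS1 in SKLMS1 (-0.45) and SKUT1 (-0.50) and IGF2R in SKN (-0.16) without RKN. The 3 were IGFBP5 in SKLMS1 without SKN (-1.21), IGFBP5 in RKN without SKUT1 (1.12) and IGFBP7 in SKN without SKUT1 (0.67), each by leaving out a line with an extreme value. Of the 9 pairs of most similar genes, 2 were the same with a pseudocount of 0.1 and 4 under TPM, and by Pearson correlation 8 of 9 shared no gene. No paired analysis was possible because each line has 1 library and no test was made. Values near 0, such as IGFBP7 in RKN and IGFBP5 in SKN, rest on about 12 and 9 reads, which limits their folds.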

Other observations

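IGFBP2 and IGFBP5 are next to each other among protein-coding genes in the RefSeq order of chromosome 2, and IGFBP1 and IGFBP3 in that of chromosome 7. The neighbours had unlike levels. IGFBP2 was 2.20 in SKUT1 and 4.63 in RKN in FPKM, while IGFBP5 was 232 in SKUT1 and 9.30 in RKN. IGFBP1 was 7.46 in SKLMS1, 0.565 in SKUT1, 0.0205 in RKN and listed at 0 in SKN. IGFBP3 was 3096 in SKUT1, 1230 in SKLMS1, 6.96 in SKN and 1.39 in RKN. IGFBP1 thus passed an FPKM of 1 in SKLMS1 only, while IGFBP3 was highest in SKUT1 and next in SKLMS1. IGFBPL1, a gene with an IGF-binding domain, was 3.43 in SKLMS1, 1.10 in RKN, 0.876 in SKUT1 and 0.0235 in SKN, and IGFALS, which stabilises circulating IGF complexes, was at most 0.0651 in any line.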
